A study of Homo sapiens with 2 samples.

Results

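The 10 genes described here encode the coactivators YAP and TAZ (YAP1, WWTR1), TEAD transcription factors (TEAD1, TEAD3, TEAD4), regulators of the Hippo pathway (LATS2, AMOTL2, AJUBA) and transcripts that respond to YAP and TAZ (ANKRD1, AXL). They were chosen by symbol from the 60616 genes listed in the deposited tables, and all 10 were found, each in a single row. Expression was measured by RNA-seq in HSC-3, a line of tongue squamous carcinoma from a human tumor, grown in DMEM with serum. One culture received 1 µM FIN56 for 48 h, and the other received 0.1% DMSO as the vehicle, for which the labels give no time. FIN56 is an inducer of ferroptosis, in which peroxidized membrane lipids kill the cell. The paper describes the concentration given to HSC-3 for RNA-seq as sublethal. With 1 library for each condition, no difference has a replicate check, and the treatment cannot be told apart from any other difference between the cultures, such as their density at harvest. In bulk RNA, fewer cells of a kind and less RNA per cell cannot be told apart.

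In the Hippo pathway, the kinases MST1 and MST2 activate LATS1 and LATS2, which phosphorylate YAP and TAZ and keep them out of the nucleus. Unphosphorylated YAP and TAZ bind TEAD proteins on DNA and raise transcription of target genes, and the pathway is known for its response to cell contact, stretch and the actin cytoskeleton. In squamous carcinomas YAP and TAZ are known for promoting proliferation and survival. The abundance of these transcripts does not measure phosphorylation or nuclear location of the proteins.

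TEAD proteins recognize the MCAT element, with the letters GGAATG, or CATTCC on the other strand. This element was searched on both strands in RefSeq windows from 250 bases before to 50 bases after each annotated start (GRCh38.p14). So was TGANTCA, a loose form of the AP-1 element that allows any middle base. The usual element has G or C there, and TGANTCA reads as the same pattern on both strands. Windows were given for 8 of the 10 genes, 12 in all, and those of TEAD1 and TEAD4 were not given. The MCAT letters were found in 6 of the 12 windows, belonging to 6 genes, against 14% of all 35116 windows in the table. The bases upstream of the start are printed below for the windows of YAP1, AMOTL2, AXL and ANKRD1 with a match and for CCN2 (also named CTGF), the target gene most often used to read YAP activity, with MCAT and AP-1 matches in capitals. The YAP1 window lies at chr11:102110197-102110446 on the plus strand, over an exon of an antisense RNA gene. The AMOTL2 window lies at chr3:134374448-134374697 on the minus strand and overlaps exons of AMOTL2. The AXL window lies at chr19:41226505-41226754 on the plus strand, before an internal start and in an intron of the longer transcripts. The ANKRD1 window lies at chr10:90921088-90921337 and the CCN2 window at chr6:131951373-131951622, both on the minus strand and outside exons, the latter within the span of LINC01013.
YAP1: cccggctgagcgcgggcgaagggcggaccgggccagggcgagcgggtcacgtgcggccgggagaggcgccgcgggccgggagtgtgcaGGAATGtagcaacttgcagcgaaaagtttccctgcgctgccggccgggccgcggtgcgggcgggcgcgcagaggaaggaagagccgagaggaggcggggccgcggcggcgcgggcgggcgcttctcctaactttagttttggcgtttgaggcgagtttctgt
AMOTL2: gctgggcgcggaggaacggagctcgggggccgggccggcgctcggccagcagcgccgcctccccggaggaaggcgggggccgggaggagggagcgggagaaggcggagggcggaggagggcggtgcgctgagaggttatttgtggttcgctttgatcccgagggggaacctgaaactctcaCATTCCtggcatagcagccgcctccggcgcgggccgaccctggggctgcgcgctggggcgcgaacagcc
AXL: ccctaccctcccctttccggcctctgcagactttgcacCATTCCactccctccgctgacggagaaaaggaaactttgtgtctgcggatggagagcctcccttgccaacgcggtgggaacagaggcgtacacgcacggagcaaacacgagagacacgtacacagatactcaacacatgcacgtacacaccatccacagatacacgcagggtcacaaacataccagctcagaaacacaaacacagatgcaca
ANKRD1: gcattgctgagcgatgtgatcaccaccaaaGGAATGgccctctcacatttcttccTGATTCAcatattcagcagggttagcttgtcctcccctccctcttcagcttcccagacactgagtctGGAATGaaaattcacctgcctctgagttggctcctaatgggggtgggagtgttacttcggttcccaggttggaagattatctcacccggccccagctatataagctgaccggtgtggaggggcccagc
CCN2: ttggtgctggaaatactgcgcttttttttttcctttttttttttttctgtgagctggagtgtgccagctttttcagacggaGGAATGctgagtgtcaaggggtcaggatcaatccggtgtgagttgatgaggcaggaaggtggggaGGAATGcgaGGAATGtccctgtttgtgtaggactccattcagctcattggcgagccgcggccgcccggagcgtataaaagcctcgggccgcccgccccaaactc

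CCN2 held 3 matches to GGAATG, a number reached in 0.128% of all windows, and ANKRD1 held 2, a number reached in 1.37%. ANKRD1 also held TGATTCA, with T as the middle base, and the loose AP-1 pattern was found in 7.71% of all windows. YAP1, AMOTL2 and AXL each held a single MCAT match. In the windows of AXL, the match lay before the internal start, and the window at the first start held none. LATS2 held GGAATG 9 bases after its start and AJUBA 59 bases before an internal start. A match is a run of letters and not evidence that a TEAD protein binds there.

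Expected counts, in which reads that fit several genes are divided between them, had a total of 70184517 with DMSO and of 73062209 with FIN56. Levels are given as FPKM, that is per length of gene and depth of library, and fold changes as the FPKM of the FIN56 library over that of the DMSO library. Beside each fold change stands the ratio of expected counts scaled by library totals with its exact 95% Clopper-Pearson interval, which covers counting error only. Genes were read as higher at a ratio of 1.5 or more and as lower at 1/1.5 or less. All 10 markers of squamous epithelium exceeded 1 FPKM in both libraries, with the basal keratin KRT5 at 2078 and 1647 FPKM and the basal transcription factor TP63 at 85.6 and 92.6 FPKM (DMSO and FIN56). The 8 fibroblast markers summed to 5.26 FPKM with DMSO and 3.04 FPKM with FIN56, and COL1A2 was at 0 counts. The 8 endothelial and blood cell markers summed to 57.4 and 24.7 FPKM, nearly all from CD68 (57.3 and 24.6 FPKM), a lysosomal protein that is not restricted to macrophages, whereas PTPRC, CD3E and KDR were at 0 counts in both. Of the fibroblast markers, COL1A1 fell from 4.25 to 2.19 FPKM. The part of COL1A1 and CD68 expressing cells in the differences below was not tested.

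Across the 10 genes, AXL was lower and ANKRD1 was higher with FIN56, and the other 8 stayed within 1.5-fold. ANKRD1 was the 1 gene of 10 at 1.5 or more, beside 14.7% of the 24454 genes that exceeded 0 FPKM under each of the treatments. AXL was the 1 gene of 10 at 1/1.5 or less, beside 17.3% of all genes. Among genes at 1 FPKM or more in both libraries, which excludes ANKRD1, 0 of 9 members reached 1.5 (3.87% of all 12638 such genes) and 1 of 9 was at 1/1.5 or less (6.77%). The median log2 FPKM fold change was 0.24 over the 10 genes, beside 0.0 over the 24454 genes above 0 FPKM in both libraries. Over the 9 members it was 0.23, beside 0.028 over the 12638 genes. The plot of levels by gene places the 10 genes over a range from below 1 to above 150 FPKM.

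**Figure D1:**
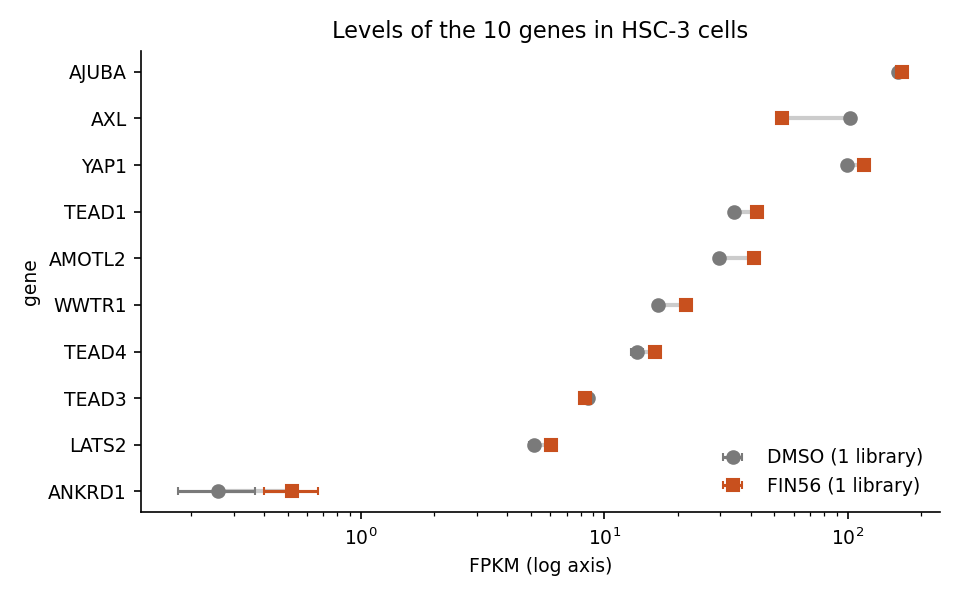
FPKM of the 10 genes (log axis) in the DMSO library (circles) and the FIN56 library (squares), with exact 95% Poisson counting intervals and 1 library each. AXL falls from 102 to 53.9 FPKM, and ANKRD1 lies below 1 FPKM in both libraries.

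With DMSO, AJUBA had the highest level at 161 FPKM, followed by AXL at 102, YAP1 at 99.6, TEAD1 at 34.2, AMOTL2 at 29.7, WWTR1 at 16.6, TEAD4 at 13.6, TEAD3 at 8.59, LATS2 at 5.16 and ANKRD1 at 0.26 FPKM. AXL and YAP1 were close, with counting intervals of 101 to 104 and 98.5 to 101 FPKM. With FIN56 the order was the same except that YAP1 (117 FPKM) stood above AXL (53.9 FPKM). TEAD1 and AMOTL2, next to each other in both libraries, had overlapping counting intervals with FIN56, at 42.0 to 43.2 and 40.6 to 42.1 FPKM. The ratio of the AXL level to the YAP1 level was 1.03 with DMSO and 0.461 with FIN56.

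The coactivators were slightly higher in the FIN56 library. YAP1, on chromosome 11 from 102110447 to 102233424 (plus strand, GRCh38, 9 exons in its canonical transcript), had 29275 expected counts with DMSO and 35595 with FIN56. Its FPKM was 99.6 and 117, a fold change of 1.17, and its count ratio was the same at 1.17 (1.15 to 1.19). Exons of 2 antisense genes overlap YAP1, and they held at most 184 expected counts in either library. WWTR1, which encodes TAZ, lies on chromosome 3 from 149517235 to 149736714 (minus strand, 7 exons), and had 3980 and 4681 expected counts. Its level was 16.6 and 21.6 FPKM, a fold change of 1.3, whereas its count ratio was 1.13 (1.08 to 1.18). YAP1 exceeded WWTR1 by 6.0 times in FPKM with DMSO and by 5.41 times with FIN56. The direction of this difference depended on the measure. By count ratio YAP1 (1.17) rose slightly more than WWTR1 (1.13), with overlapping intervals. Both genes had expected counts that were not whole numbers, so part of their reads were divided with other genes. WWTR1-AS1, an antisense gene that overlaps WWTR1 exons, held 17.8 and 25 expected counts. The kit keeps strand, but whether the counting used it was not given, so reads of a gene and its antisense partner may be mixed.

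The gap between the WWTR1 measures comes from the effective gene length, which RSEM weights by how much of each transcript it assigns. The length implied by the FPKM and the count of WWTR1 was 3414 bases with DMSO and 2966 bases with FIN56, a change of -13.1%. GENCODE release 44 lists 8 protein coding WWTR1 transcripts of 503 to 5037 bases. WWTR1 was the 1 gene of 9 members at 1 FPKM or more with a change of at least 10% either way, beside 13.4% of all 12638 genes. AJUBA followed, with a change of -7.39% from 3266 to 3025 bases. The other members changed by at most 4.54% either way, the value of LATS2. The plot of implied lengths shows these differences beside the range of all genes. The deposited tables give no values per transcript.

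**Figure D2:**
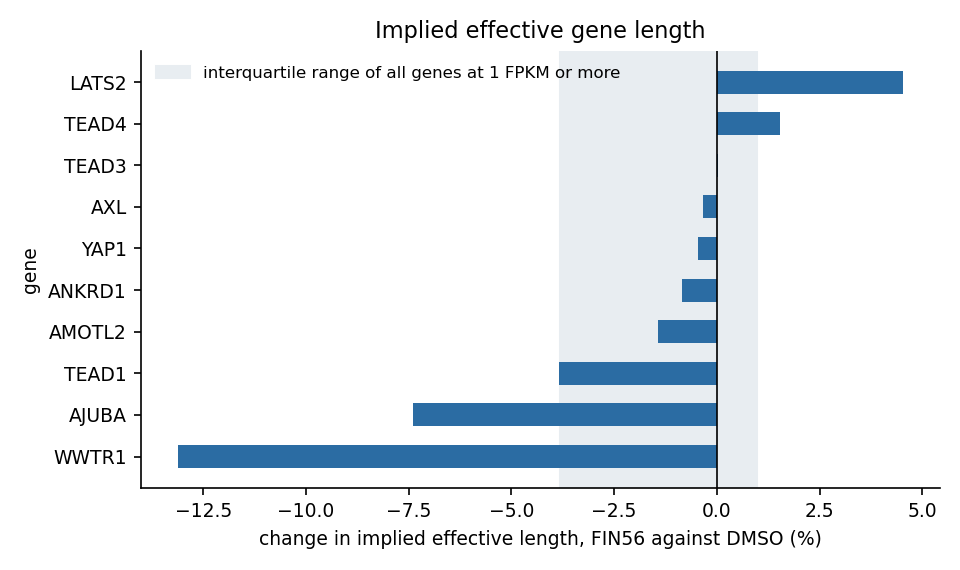
Change in the effective gene length implied by the FPKM and the expected count of each gene, FIN56 against DMSO, in percent. The shaded band is the interquartile range of the 12638 genes at 1 FPKM or more in both libraries (-3.83 to 0.973%), and WWTR1 (-13.1%) and AJUBA (-7.39%) lie below it.

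TEAD1 was the most abundant of the DNA-binding partners of YAP and TAZ, and TEAD3 had nearly equal levels in both libraries. TEAD1 (chromosome 11, 12674421 to 12944737, plus strand, 13 exons) had 18104 and 22548 expected counts and 34.2 and 42.6 FPKM, a fold change of 1.24 with a count ratio of 1.20 (1.17 to 1.22). TEAD4 (chromosome 12, 2959330 to 3040676, plus strand, 13 exons) had 1362 and 1709 counts and 13.6 and 16.2 FPKM, a fold change of 1.19 with a count ratio of 1.21 (1.12 to 1.3). TEAD3 (chromosome 6, 35473597 to 35497079, minus strand, 13 exons) had 1740 and 1761 counts and 8.59 and 8.35 FPKM. The count ratio of TEAD3 was 0.972, and its interval of 0.909 to 1.04 included 1. The paralog TEAD2, which is not among the 10 genes, had 2.50 and 2.90 FPKM. Over all 4 TEAD genes the summed level was 58.95 FPKM with DMSO and 70.02 FPKM with FIN56, of which TEAD1 held 58.1% and 60.8%, TEAD4 23.1% and 23.1%, TEAD3 14.6% and 11.9%, and TEAD2 4.24% and 4.14%. Among the VGLL cofactors, which also bind TEAD proteins, VGLL1 went from 0.59 to 1.59 FPKM on 42 and 95 expected counts, with a count ratio of 2.17 (1.5 to 3.20). VGLL4, which competes with YAP for TEAD, had 8.0 and 11.3 FPKM and a count ratio of 1.47 (1.39 to 1.56). In the list of 10 TEAD factors and cofactors, 2 were at 1.5 or more, VGLL1 and VGLL2, the latter on 1 and 2 counts, and 0 were at 1/1.5 or less, beside 14.7% and 17.3% of all genes. Of the 8 at 1 FPKM or more in both libraries, 0 passed either threshold.

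The regulators upstream of YAP stayed within 1.5-fold. LATS2, a kinase that phosphorylates YAP and is itself a YAP target, lies on chromosome 13 from 20973036 to 21061586 (minus strand, 8 exons). It had 1888 expected counts with DMSO and 2401 with FIN56, and 5.16 and 6.03 FPKM, a fold change of 1.17 with a count ratio of 1.22 (1.15 to 1.3). Its paralog LATS1 had 6.77 and 7.73 FPKM and a count ratio of 1.15 (1.10 to 1.21). The level of LATS1 over that of LATS2 was 1.31 with DMSO and 1.28 with FIN56. AMOTL2, an angiomotin family protein that binds YAP at junctions and is also a YAP target, lies on chromosome 3 from 134355347 to 134375479 (minus strand, 10 exons). It had 8325 and 11873 expected counts and 29.7 and 41.3 FPKM. Its fold change of 1.39, with a count ratio of 1.37 (1.33 to 1.41), was the highest of the 9 members at 1 FPKM or more.

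AJUBA, a LIM protein that binds LATS kinases and restrains them, was the most abundant of the 10 genes and differed little between the libraries. It lies on chromosome 14 from 22971177 to 22982551 (minus strand, 8 exons). AJUBA had 36958 and 37086 expected counts and 161 and 168 FPKM. Its direction depended on the measure, with an FPKM fold change of 1.04 and a count ratio of 0.964 (0.95 to 0.978). An unnamed gene on the same strand, which shares exon positions with AJUBA, held 293 and 140 expected counts.

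**Figure D3:**
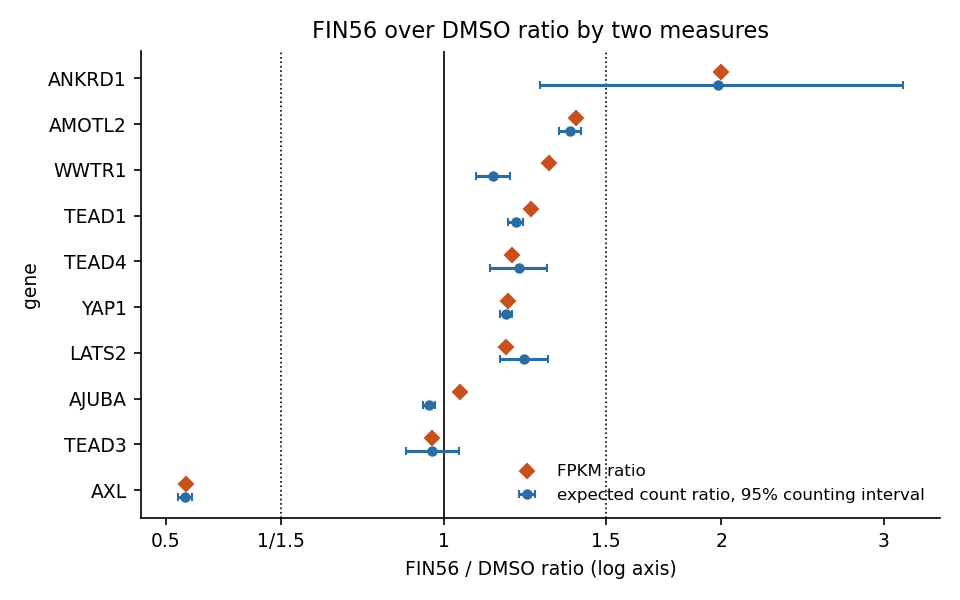
FIN56 over DMSO ratio of the 10 genes (log axis) by FPKM (diamonds) and by expected counts scaled by library totals (circles, with exact 95% counting intervals). Dotted lines mark 1.5 and 1/1.5, which AXL (0.526) and ANKRD1 (2.0) pass, and the measures differ most for WWTR1 (1.3 and 1.13).

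Other members of the pathway upstream of YAP were described from lists. Of 16 core kinases and scaffolds, 0 were at 1.5 or more and 0 at 1/1.5 or less, with ratios from 0.832 for MAP4K4 to 1.33 for STK3, which encodes MST2. All 16 were at 1 FPKM or more, where 3.87% of all genes were higher and 6.77% lower, so a count of 0 is near the general rate. The median log2 FPKM fold change was 0.14 over the list and 0.11 without LATS2. The 9 subunits of STRIPAK, a phosphatase complex that inactivates MST kinases, all at 1 FPKM or more, also had 0 genes past either threshold, beside the same shares, and a median of 0.16. Of 7 junction and LIM regulators, 6 were above 0 FPKM in both libraries, with a median of 0.061 and 0 past a threshold, beside 14.7% higher and 17.3% lower among all genes above 0. AMOT, the founding angiomotin, was at 0 counts in both libraries, which allows up to 3 counts in each. A further junctional member, AMOTL1, had 56.1 and 58.6 FPKM.

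Of the targets among the members, ANKRD1 had the highest ratio and AXL the lowest. ANKRD1, a cardiac and stress-induced ankyrin repeat protein and a common YAP reporter, lies on chromosome 10 from 90912096 to 90921087 (minus strand, 9 exons). It had 31 expected counts with DMSO and 64 with FIN56, at 0.26 and 0.52 FPKM. The fold change was 2.0, and the count ratio of 1.98 had an interval of 1.27 to 3.15, the widest of the 10 genes. CCN2, whose upstream sequence holds 3 MCAT matches, had 1310 and 1933 expected counts and 8.33 and 11.8 FPKM, with a count ratio of 1.42 (1.32 to 1.52). CCN1, also named CYR61 and encoding a matricellular protein of the same family, had 20311 and 16964 expected counts and 143 and 114 FPKM. Its count ratio of 0.802 (0.786 to 0.819) was in the other direction from that of CCN2. No window was given for CCN1, so its upstream sequence was not searched for MCAT matches.

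AXL encodes a receptor tyrosine kinase for the ligand GAS6, known for its links to invasion and drug resistance in carcinoma. It lies on chromosome 19 from 41219223 to 41261766 (plus strand, 20 exons). AXL fell from 31610 to 17249 expected counts and from 102 to 53.9 FPKM. The fold change was 0.526, with a count ratio of 0.524 (0.515 to 0.534), and the expected counts were whole numbers. Of the 12638 genes at 1 FPKM or more in both libraries, 227 had an FPKM ratio as low as that of AXL or lower. An antisense gene that overlaps AXL exons held 3 and 4 expected counts. The plot of all ratios shows AXL apart from the other 8 members at 1 FPKM or more.

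**Figure D4:**
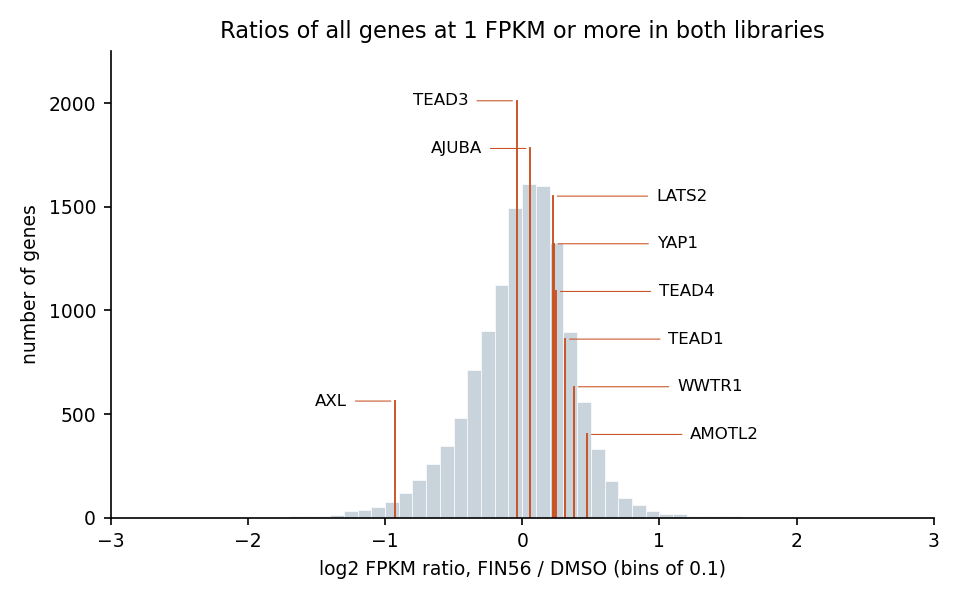
Number of genes by log2 FPKM ratio, FIN56 over DMSO, in bins of 0.1 for the 12638 genes at 1 FPKM or more in both libraries (genes beyond 3 either way are in the end bins), with lines at the 9 members that reach 1 FPKM. The heights of the lines carry no value, AXL lies at -0.93 and the other 8 members between -0.041 and 0.47.

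AXL belongs to the TAM receptors, whose other members, TYRO3 and MERTK, had FPKM ratios within 1.5-fold. TYRO3 had 684 and 454 expected counts and 3.92 and 3.12 FPKM, with a count ratio of 0.638 (0.565 to 0.719) against an FPKM ratio of 0.796. MERTK had 0.33 and 0.32 FPKM. GAS6, the ligand of AXL, had 60.2 FPKM with DMSO and 69.7 FPKM with FIN56, a fold change of 1.16. The AXL level was 1.70 times that of GAS6 with DMSO and 0.772 times with FIN56. PROS1, a ligand of TYRO3 and MERTK, had 154 and 259 expected counts and 0.68 and 1.13 FPKM, with a count ratio of 1.62 (1.32 to 1.99).

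A list of 22 YAP and TAZ target genes, which holds 4 of the members, was read in the same way. Of these, 2 were at 1.5 or more (ANKRD1 and NT5E) and 2 at 1/1.5 or less (AXL and IGFBP3), with 13 above and 9 below a ratio of 1. Over all genes above 0 FPKM in both libraries the shares were 14.7% and 17.3%, so neither count of 2 in 22 exceeded these shares. Among the 19 genes of the list at 1 FPKM or more, 1 was higher and 2 were lower, beside 3.87% and 6.77% of all such genes. Counts this small do not set the list apart from the general rate. The median log2 FPKM fold change of the list was 0.17, and without the members it was 0.095 over 18 genes. NT5E, which encodes the ecto-nucleotidase CD73, rose from 117 to 201 FPKM, with 25520 and 45718 expected counts and a count ratio of 1.72 (1.69 to 1.75). IGFBP3, an insulin-like growth factor binding protein, fell from 34.9 to 9.90 FPKM, with 5389 and 1584 expected counts and a count ratio of 0.282 (0.267 to 0.299). F3, the coagulation initiator tissue factor and the most abundant of the list, had 1250 and 996 FPKM, whereas MYOF, a membrane repair protein, had 149 and 168 FPKM. Ratios of the target list ran from 0.284 to 2.0, and those of the core kinases and scaffolds from 0.832 to 1.33.

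Cytoskeletal genes driven by SRF and its cofactors MRTF, which respond to actin as YAP targets do, were listed beside them. Of 14 genes, 2 were at 1.5 or more, VCL and CNN1, the latter on 1 and 2 counts, and 1 was at 1/1.5 or less, MYL9, on 35 and 17 counts, beside 14.7% and 17.3% of all genes. At 1 FPKM or more in both libraries there were 11 genes, with VCL alone past a threshold, beside 3.87% higher and 6.77% lower among all such genes. VCL, which encodes the adhesion protein vinculin, rose from 74.0 to 116 FPKM with a count ratio of 1.60 (1.58 to 1.62). The median of the 11 genes was 0.21 on the log2 scale. ACTB, cytoplasmic actin, had 2178 and 2572 FPKM. The smooth muscle gene TAGLN had 0.32 and 0.26 FPKM.

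**Figure D5:**
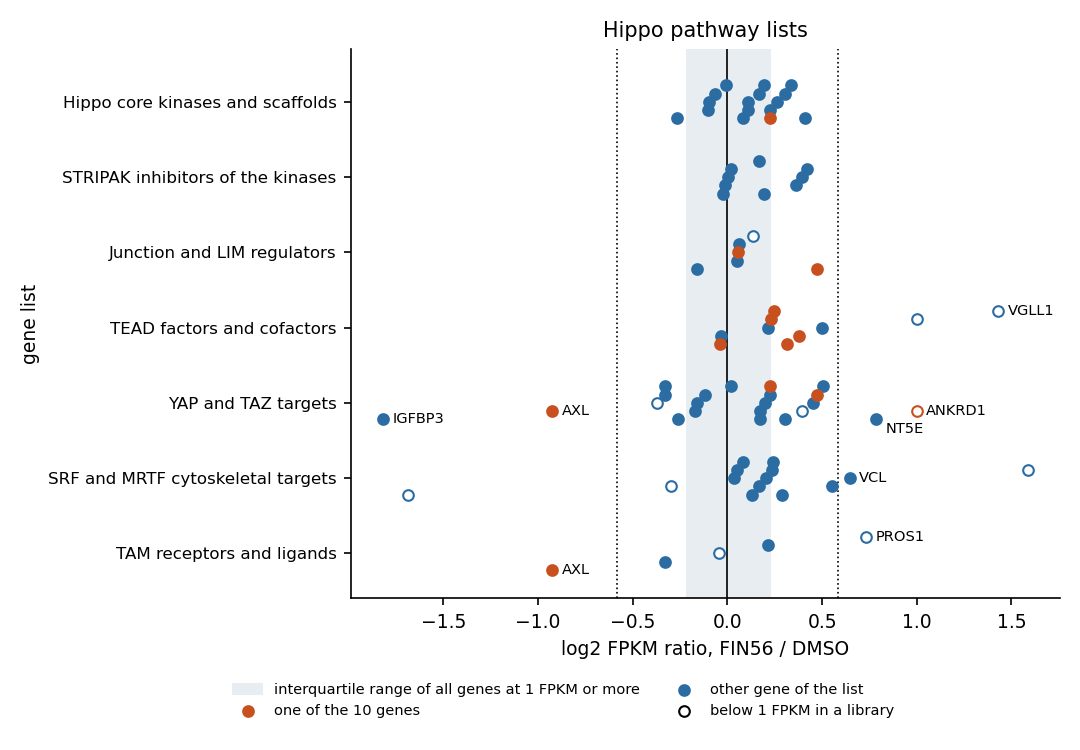
Log2 FPKM ratio, FIN56 over DMSO, of the genes of 7 lists (1 point per gene, open where below 1 FPKM in a library, orange for the 10 genes described here), with the interquartile range of all genes at 1 FPKM or more shaded and 1.5-fold marked by dotted lines. IGFBP3 and AXL lie lowest among points above 1 FPKM, and no core kinase or STRIPAK gene passes a dotted line.

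Small differences such as those of YAP1 and TEAD1 are set against the libraries as a whole. Among the 12638 genes at 1 FPKM or more the interquartile range of the FPKM ratio was 0.864 to 1.17. At or above its upper end, the upper quartile of all such genes, were 5 of the 9 members: YAP1, WWTR1, TEAD1, TEAD4 and AMOTL2. LATS2 lay just under it. These places rest on FPKM, and YAP1 passed the quartile narrowly, at a percentile of 75.5. By count ratio, WWTR1 was at 1.13 and LATS2 at 1.22. The counting interval lay above 1 for 6 of the 9 members and for 38.0% of all such genes, and below 1 for 2 members and 35.9% of all. Counting error at this depth is thus smaller than the differences between these libraries for most genes, and how far 2 cultures under the same condition would differ was not measured.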

How the data were processed

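RNA from the FIN56 and the DMSO culture of HSC-3 was sequenced as 1 library each from a stranded mRNA kit. Per the paper's methods, written for tumor RNA and taken here to hold for these libraries, and the submitters' processing notes, reads were checked with FastQC 0.11.7, aligned with STAR 2.6.1a to GRCh38 and quantified with RSEM 1.3.1. The strand setting was not given in the sources used here. The authors deposited expected counts without normalization. The FPKM deposited by the authors are scaled for depth and effective length, and the TPM deposited by the authors sum to the same total per library. The authors also deposited rlog values (DESeq2 1.26.0), a log2 measure that draws libraries together.

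FPKM ratios were computed for genes above 0 in both libraries, with a threshold of 1.5. Expected counts were rounded for count ratios and for exact Clopper-Pearson and Poisson intervals at 95%, which cover counting error only, since PCR copies cannot be recognized without molecular identifiers. No test between conditions was possible. The effective length was taken as the expected count over the product of FPKM and the library total. Whole expected counts were those within 0.005 of an integer. Genes named beside the 10 members were those fixed by name (LATS1, TEAD2, CCN2, CCN1, GAS6, TYRO3, MERTK), those past 1.5-fold with at least 100 expected counts in all. Other genes named from the lists (KRT5, TP63, ITGB4, EPCAM, STK3, MAP4K4, AMOTL1, VGLL2, VGLL4, F3, MYOF, ACTB, TAGLN, CNN1, MYL9, FAT1, FAT2, CRB3, and markers at 0 counts) fell outside this rule and were chosen after their values were seen. The members and the lists were chosen with earlier results of these data known. Positions came from GENCODE release 44 (GRCh38). Alternatives were TPM, rlog, TMM (edgeR 4.0.16), median-of-ratios size factors (DESeq2 1.42.0), library totals, filters on low values, pseudocounts and a threshold of 2. Intervals and thresholds were run on simulated Poisson counts with planted changes well past the threshold. These hold counting error only, so variation between cultures and shifts in gene length were not covered. Python 3.11.15, scipy 1.17.1 and R 4.3.3 were used.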

Additional observations from a re-analysis of the deposited data

How the results depend on the processing

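No paired analysis was possible because FIN56 and DMSO were each given to 1 culture, so that no replicate could be left out either. The count of members at 1.5 or more, which is 1 (ANKRD1), became 0 with rlog values, with a pseudocount of 1 FPKM, and on keeping genes of 1 FPKM or more, which removes ANKRD1 by construction. The count at 1/1.5 or less, which is 1 (AXL), became 0 with rlog values and with a fold threshold of 2. With rlog values, which shrink differences by construction, the median log2 fold change became 0.10 for the members and 0.056 for the YAP and TAZ targets. Under the other alternatives run, both counts were as reported, and the medians ran from 0.23 to 0.28 for the members and from 0.14 to 0.20 for the targets. Of single members, AJUBA was above 1 in 3 of 7 alternatives and below 1 in 4 (0.963 with TMM to 1.06 with TPM), so its direction depends on the measure. The other 9 members kept their direction in all 7. The pseudocounts could not have changed a direction, and TMM, size factors and library totals rescale the same count ratio. TEAD3 ran from 0.971 to 0.999, and its counting interval included 1, so its direction is not settled. The fold change of AXL ran from 0.523 with TMM to 0.765 with rlog values, that of ANKRD1 from 1.05 with rlog values to 2.03 (median of ratios), and that of WWTR1 from 1.06 with rlog values to 1.33 with TPM. Depth limits ANKRD1 most, with 31 and 64 expected counts.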

Other observations

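The atypical cadherins and apical polarity proteins act on the Hippo pathway from the cell surface. Of 11 listed genes, 6 were above 0 FPKM in both libraries, with FPKM ratios from 0.933 to 1.09. Their median log2 FPKM fold change was -0.038, and 0 were past 1.5-fold, beside 14.7% higher and 17.3% lower among all genes above 0. Of the 5 at 1 FPKM or more, 0 passed either threshold, beside 3.87% and 6.77% of all such genes. FAT2, a squamous atypical cadherin, had 40.1 FPKM with DMSO and 37.6 FPKM with FIN56, FAT1 had 32.1 and 33.3 FPKM, and the polarity protein CRB3 had 13.5 and 12.6 FPKM. Of the 10 squamous markers, 0 were past 1.5-fold, beside the same shares, with 5 above and 5 below a ratio of 1. Their median log2 FPKM fold change was 0.054. The lowest ratio was that of ITGB4, the hemidesmosome integrin, with 194 FPKM with DMSO and 132 FPKM with FIN56, a ratio of 0.678. The highest was that of EPCAM, an epithelial adhesion molecule, with 111 and 160 FPKM, a ratio of 1.44.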
